A study of Mus musculus with 24 samples.

Results

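The genes described here carry or control sodium reabsorption along the kidney tubule: Slc9a3, Slc12a1, Slc12a3, Scnn1a, Scnn1b, Scnn1g, Kcnj1, Wnk1 and Wnk4. They were chosen by symbol from the deposited count table, where each matched 1 of 48526 gene rows, and all 9 passed the filter on low counts. The table holds 24 RNA-seq libraries from the kidney cortex, taken from C57BL/6 mice that made up 4 groups of 6. Non-diabetic mice on vehicle had received citrate buffer and drank plain water. Diabetic mice on vehicle had been made diabetic at 6 weeks of age with 5 daily intraperitoneal injections of streptozotocin, a toxin of insulin-producing beta cells, at 55 mg/kg, and also drank plain water. The other groups, non-diabetic and diabetic, took PMX-53 at 2 mg/kg body weight in the drinking water. PMX-53 is a cyclic peptide that blocks C5a receptor 1, the receptor for the complement fragment C5a. All mice were followed for 24 weeks, and the sex of the animals is not given in the sources used here. The series asked how diabetes and PMX-53 change kidney gene expression. Each library is labelled as a separate sample of its group, and where no label ties it to a separate animal, a p-value measures only the spread between these samples.

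Sodium is filtered in the glomerulus and taken back segment by segment. NHE3, the product of Slc9a3, exchanges sodium for protons in the apical membrane of the proximal tubule, and NKCC2 (Slc12a1) takes up sodium, potassium and chloride in the thick ascending limb, where the potassium channel ROMK (Kcnj1) returns potassium to the lumen. NCC (Slc12a3) takes up sodium and chloride in the distal convoluted tubule, and the epithelial sodium channel ENaC, built from alpha, beta and gamma subunits (Scnn1a, Scnn1b, Scnn1g), completes uptake in the connecting tubule and the principal cells of the collecting duct under the control of aldosterone. The kinases WNK1 and WNK4 act through the kinases SPAK and OSR1 to set the phosphorylation of NCC and NKCC2. Transcript levels do not report channel activity, which depends on phosphorylation, cleavage and trafficking.

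Library totals ran from 10964992 to 22000895 counts, so the member with the fewest counts in any library, Scnn1g, still had 200, and Slc12a3 had at least 10952. Diabetic mice on vehicle differed from non-diabetic mice on vehicle in the makeup of their libraries. Mitochondrially encoded genes took 29.5% ± 2.14 (SD, n = 6) of their counts against 22.6% ± 1.65 (SD, n = 6) in non-diabetic mice on vehicle (exact permutation test, two-sided, adjusted p = 0.0115). Ribosomal RNA, which the library preparation was meant to deplete, took 24.8% against 18.8% in the same groups. Among the other counts the mitochondrial share was 6.24% against 4.66% (exact permutation tests, each adjusted p = 0.0115). Ribosomal RNA here includes that encoded by mitochondria, so the 29.5% and the 24.8% largely count the same reads. In diabetic mice on PMX-53 the mitochondrial share of all counts was 22.2% to 29.0%, overlapping 25.9% to 31.9% in diabetic mice on vehicle. None of these shares passed between those groups (exact permutation tests, adjusted p from 0.0606 to 0.0623). Nnt, which encodes a mitochondrial transhydrogenase, set diabetic mice on vehicle apart from all other groups. It had 242 to 272 CPM (counts scaled to equal library totals) in their 6 libraries and 101 to 121 in the other 18. Replicate 4 of diabetic mice on vehicle also differed from the other 5, with 29.5 CPM of C3 (complement component) where they had 164 to 537 and 5556 CPM of Kap (an androgen-regulated proximal tubule gene) where they had 145 to 1007. Any difference of these mice other than diabetes cannot be told apart from diabetes in comparisons that use the group, and its part in the results was not tested. No marker listed for a nephron segment was at 0 in every library of the cortex.

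Levels are given as CPM after scaling by trimmed mean of M values (TMM). A gene was called higher or lower at an adjusted p under 0.05 in edgeR's quasi-likelihood test, fitted over all 24 libraries and 15808 genes with Benjamini-Hochberg adjustment. A log2 fold change is given with its standard error (SE). To compare one gene with another, CPM were divided by the length of the gene's exons. In non-diabetic mice on vehicle, Slc12a1 stood at 102 ± 18.4 (SD, n = 6) CPM per kilobase and Slc12a3 at 77.8 ± 4.43, with overlapping ranges. Kcnj1 (39.9), Wnk4 (38.8) and Wnk1 (30.8) followed, each overlapping the next. Scnn1a (15.5) and Slc9a3 (14.6) overlapped each other, as did Scnn1b (8.47) and Scnn1g (6.44), the lowest of the set. The order at the top depends on the length used. Divided by the longest protein-coding transcript, Slc12a3 led with 201 CPM per kilobase over Slc12a1 with 124, with no overlap, and Wnk1 followed with 62.0.

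Scnn1g and Scnn1b lie beside each other on the plus strand of chromosome 7 (GRCm38), 96562 bases apart, at chr7:121734479-121768475 and chr7:121865038-121918514. Their upstream sequences are shown because their levels moved together in what follows, and those of Slc12a1 and Slc12a3 because these related cotransporters moved apart. Each is taken from the 250 bases before the RefSeq start on GRCm38.p6, plus strand, up to the GENCODE start where that lies earlier, in lower case with matches to the motifs searched in capitals. The regions are chr7:121864788-121865037 for Scnn1b, chr7:121734229-121734478 for Scnn1g, chr2:125152350-125152504 for Slc12a1 and chr8:94328958-94329200 for Slc12a3.
Scnn1b: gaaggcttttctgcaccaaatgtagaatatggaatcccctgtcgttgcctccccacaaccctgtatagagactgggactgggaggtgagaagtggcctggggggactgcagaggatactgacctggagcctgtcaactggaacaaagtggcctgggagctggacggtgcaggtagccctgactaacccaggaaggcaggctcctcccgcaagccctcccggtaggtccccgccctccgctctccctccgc
Scnn1g: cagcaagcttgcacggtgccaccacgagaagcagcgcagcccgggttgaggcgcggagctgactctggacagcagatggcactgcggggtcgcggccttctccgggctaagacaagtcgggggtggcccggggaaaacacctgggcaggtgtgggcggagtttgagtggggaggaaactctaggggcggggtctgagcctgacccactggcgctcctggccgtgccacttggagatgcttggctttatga
Slc12a1: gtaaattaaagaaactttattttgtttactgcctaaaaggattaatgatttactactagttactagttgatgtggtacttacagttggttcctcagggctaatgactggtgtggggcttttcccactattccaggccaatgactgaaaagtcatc
Slc12a3: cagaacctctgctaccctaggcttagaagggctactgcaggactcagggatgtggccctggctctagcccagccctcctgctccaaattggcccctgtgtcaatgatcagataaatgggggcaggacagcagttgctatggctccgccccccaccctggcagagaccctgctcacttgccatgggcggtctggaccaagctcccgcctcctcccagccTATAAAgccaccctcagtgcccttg

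The search used 5 motifs on both strands: the steroid receptor element (AGAACA and its reverse complement with 3 bases between) and its core hexamer AGAACA, which lies inside it, the E-box with the letters CACGTG, the core of a site of the factor HNF1 with GTTAAT and the TATA box with TATAAA. Of 32851 RefSeq promoters of the same length, 0.00913% held the full steroid receptor element, 16.1% its core hexamer, 6.02% the E-box, 6.43% GTTAAT and 12.4% TATAAA. Promoters were listed for 8 of the 9 genes, all but Scnn1a. Positions are counted back from the RefSeq start. The Slc12a3 promoter held TATAAA beginning at position -32, and the Slc9a3 promoter held CACGTG at -87. The Slc12a3 sequence printed above stops short of its RefSeq start, because the GENCODE start lies earlier. The window listed for Kcnj1, chr9:32393735-32393984, lies inside the gene as GENCODE draws it, not before the gene, and held AGAACA at -190 and -14. No motif of the 5 matched in the windows of Slc12a1, Scnn1b, Scnn1g, Wnk1 or Wnk4. In the 250 bases the share of G and C was 39.6% before Slc12a1 and 61.2% before Slc12a3, and 60.8% and 65.2% before Scnn1b and Scnn1g.

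With diabetes on vehicle, the members called were ENaC, the WNK kinases, NKCC2 and ROMK on the higher side and NHE3 on the lower side: 7 rose, 1 fell (Slc9a3) and 1 (Slc12a3) did not pass. Over all genes 40.3% were called in this comparison, 20.4% higher and 19.9% lower. The members' median log2 fold change was 0.31, against -0.00 over all genes tested. With PMX-53 in diabetic mice Slc9a3 and Slc12a3 rose, Slc12a1 fell and the other 6 members did not pass, where 27.3% of all genes were called (13.9% higher, 13.5% lower). In diabetic against non-diabetic mice that both took PMX-53, 4 members rose (Scnn1b, Scnn1g, Wnk1 and Wnk4) and none was called lower, where 10.0% of all genes were called (5.52% higher, 4.52% lower). In non-diabetic mice, edgeR called no member and no gene for PMX-53 (0.00%). There 3 members (Slc9a3, Slc12a3 and Scnn1b) and 1142 genes in all had an unadjusted p under 0.05, and DESeq2 called 4 genes. The interaction, which tests whether the effect of PMX-53 differed between diabetic and non-diabetic mice, called none of the 9, where edgeR called 9.42% of all genes (4.66% higher, 4.76% lower). An unadjusted p under 0.05 in edgeR was reached there by 2 members (Slc9a3 and Slc12a1) and by 24.0% of all genes. DESeq2 also called no member in the interaction, and limma voom called 1. The comparisons with diabetic mice on vehicle share those libraries, so their values are given side by side and not as independent evidence. With no scaling beyond library totals, the share of called genes that were higher went from 50.7% to 31.2% for diabetes on vehicle and from 50.7% to 79.5% for PMX-53 in diabetic mice. It went from 54.9% to 65.7% for diabetes on PMX-53 and from 49.5% to 79.3% for the interaction. The median of all genes shifted to 0.12 in the comparison of PMX-53 in diabetic mice and in the interaction under that setting.

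**Figure D1:**
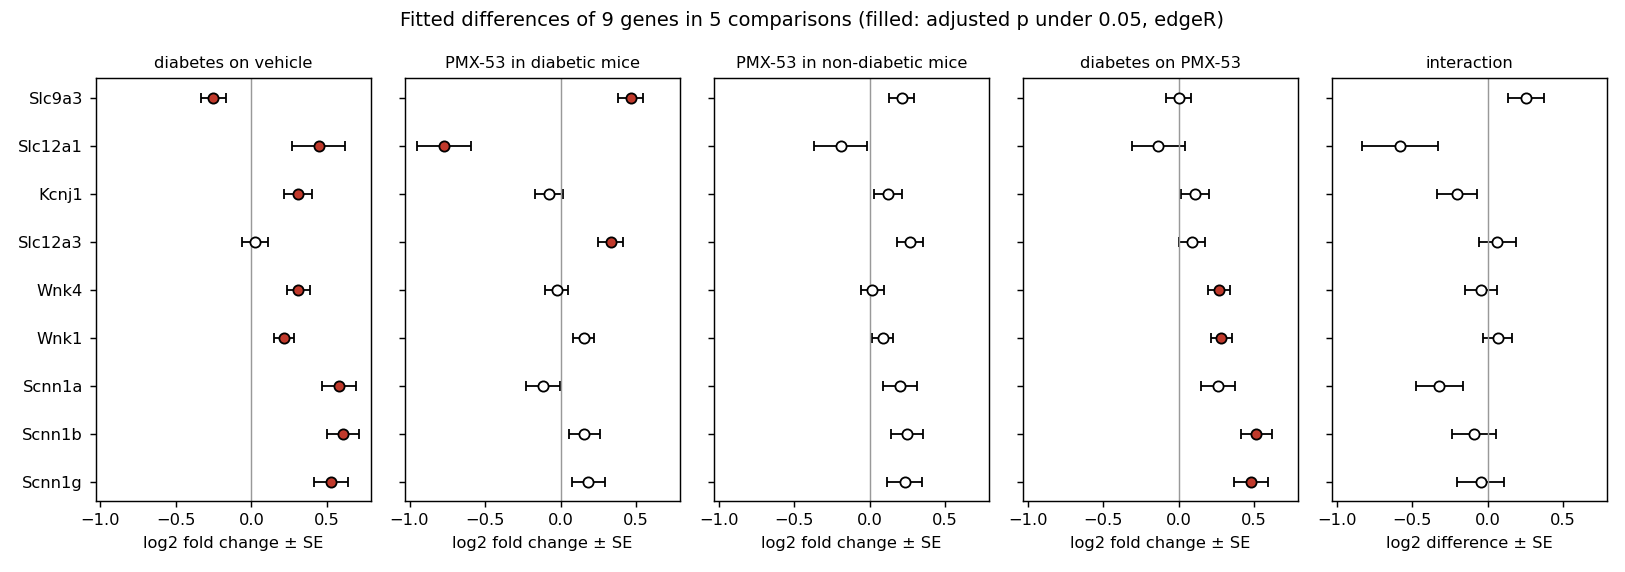
Fitted log2 fold changes ± SE of the 9 genes (rows) in the 4 comparisons and their interaction (panels, log2 on the x axis); filled points passed an adjusted p of 0.05 in edgeR and open points did not. The 3 ENaC subunits sit at 0.53 to 0.61 for diabetes on vehicle, and Slc12a1 sits at -0.77 for PMX-53 in diabetic mice, opposite to Slc9a3 at 0.46.

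In the proximal tubule, NHE3 (Slc9a3, chr13:74121457-74169442, plus strand) was lowest in diabetic mice on vehicle. Its CPM there were 60.0 at the lowest, 66.0 at the median and 77.6 at the highest, against 65.3, 83.7 and 88.5 in non-diabetic mice on vehicle. All 6 diabetic libraries lay below the non-diabetic mean, with overlapping ranges. Slc9a3 changed by -0.25 ± 0.08 on the log2 scale (SE, adjusted p = 0.0196), and the call was lost without replicate 4 of non-diabetic mice on vehicle (adjusted p = 0.0512) or replicate 1 of diabetic mice on vehicle (adjusted p = 0.0514). Diabetic mice on PMX-53 had 82.5, 91.3 and 109 CPM, and every one of the 6 lay above every diabetic library on vehicle. Slc9a3 was 1.38-fold higher with PMX-53 in diabetic mice (log2 0.46 ± 0.08, adjusted p = 2.2e-04), and it was the 1 member of 9 whose groups did not overlap there, where 8.20% of all genes did not overlap. On a bulk tissue sample, fewer cells of a segment and less RNA per cell cannot be told apart.

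In non-diabetic mice on PMX-53, Slc9a3 had 80.4, 91.8 and 106 CPM, with 3 of 6 libraries above the vehicle range. The log2 fold change of 0.21 ± 0.08 did not pass (adjusted p = 0.585). Diabetic and non-diabetic mice on PMX-53 had nearly the same level, at 92.8 ± 8.81 and 92.9 ± 10.99 CPM (SD, n = 6), and the fitted difference was -0.00 ± 0.08 (adjusted p = 0.997). The interaction was 0.25 ± 0.12 (adjusted p = 0.197), and 0.37 (adjusted p = 0.0311) with no scaling beyond library totals. Of 4 proximal S3 markers, Slc7a13, Slc22a7 and Acy3 were called lower with diabetes on vehicle, where 19.9% of all genes were, and higher when diabetic mice took PMX-53, where 13.9% were. Those calls with PMX-53 ended in an edgeR fit of only the groups compared (adjusted p = 0.0574 for Acy3, 0.0629 for Slc22a7 and 0.141 for Slc7a13). That of Slc7a13 also ended in 5 of 12 fits without 1 library (adjusted p up to 0.0591). The other of the 4 markers, Slc5a8, went against Slc9a3 with PMX-53 in diabetic mice, at -0.47 ± 0.11 (adjusted p = 0.00377). That call ended with no scaling beyond library totals (adjusted p = 0.0679). The summed level of the 4 S3 markers was 1713 to 1989 CPM in non-diabetic and 448 to 1263 CPM in diabetic mice on vehicle. On PMX-53 it was 1583 to 1989 CPM in non-diabetic and 965 to 1150.3 CPM in diabetic mice, which did not overlap, where Slc9a3 had nearly the same level. The summed S1 and S2 markers were 12435 to 14468 CPM and 8949 to 11352 CPM on vehicle, although 3 of their 6 genes were called higher and 3 lower (20.4% and 19.9% of all genes). The part of these markers in the Slc9a3 result was not tested.

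**Figure D2:**
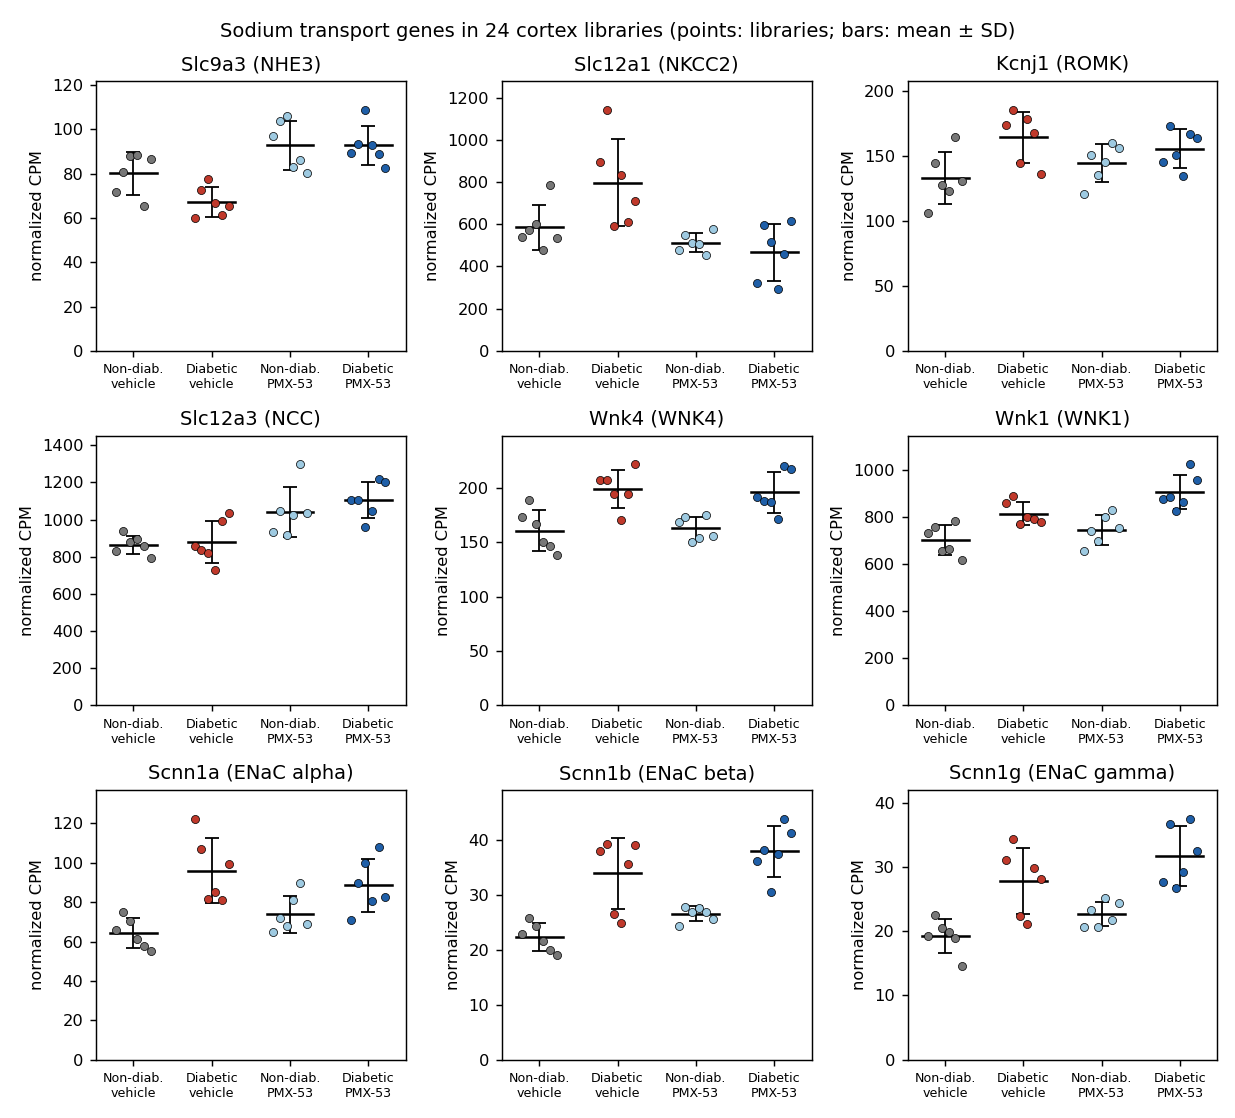
Normalized CPM (y axes, from 0) of each gene in the 24 libraries by group (x axes); points are libraries and the bars give the mean and SD of 6. Slc9a3 in diabetic mice on PMX-53 (82.5 to 109) lies above diabetic mice on vehicle (60.0 to 77.6), and Scnn1b and Scnn1g are higher in both diabetic groups.

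In the thick ascending limb, NKCC2 (Slc12a1, chr2:125152505-125230002, plus strand) had its highest values in diabetic mice on vehicle, at 593, 772 and 1143 CPM (lowest, median and highest of 6). Non-diabetic mice on vehicle had 480.2, 556 and 786, and 3 of the 6 diabetic libraries lay above that range. The log2 fold change was 0.45 ± 0.18 (adjusted p = 0.0477). Leaving out 1 library at a time ended this call in 9 of 12 cases, with adjusted p from 0.0186 to 0.141 (highest without replicate 2 of diabetic mice on vehicle). It also ended with no scaling beyond library totals (0.33, adjusted p = 0.190), upper-quartile scaling (adjusted p = 0.0581), no low-count filter (0.0927) and thinning to the smallest library (0.0666). The libraries of diabetic mice on PMX-53 were at 292, 488 and 615 CPM, and 4 of 6 lay below the whole range of diabetic mice on vehicle. Slc12a1 fell by 0.77 on the log2 scale with PMX-53 in diabetic mice (SE 0.18, adjusted p = 0.00241), to 0.585 of the vehicle level. This call was past the threshold in all 12 fits that left out 1 library, with log2 fold changes from -0.87 to -0.65.

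Non-diabetic mice on PMX-53 had 455, 509.9 and 577 CPM of Slc12a1 and a log2 fold change of -0.19 ± 0.18 (adjusted p = 0.889). Between the groups on PMX-53 the difference was -0.14 ± 0.18 (adjusted p = 0.686), with diabetic libraries on both sides of the non-diabetic range. The interaction of -0.58 ± 0.25 did not pass (adjusted p = 0.148), except by limma voom (adjusted p = 0.0417). Of 7 markers listed for the thick limb, 3 were called lower with diabetes on vehicle (19.9% of all genes) and 1 higher (20.4%). The higher one, the prostaglandin receptor gene Ptger3, moved in the directions of Slc12a1, by 0.89 ± 0.14 with diabetes on vehicle (adjusted p = 2.71e-05) and by -0.82 ± 0.14 when diabetic mice took PMX-53 (adjusted p = 1.59e-04). In the latter comparison 1 other marker, Casr, was called, and it was higher (13.9% of all genes). Umod, which encodes the secreted protein uromodulin, fell by 0.36 on the log2 scale with diabetes on vehicle (SE 0.12, adjusted p = 0.01997), a call that ended without replicate 3 of diabetic mice on vehicle (adjusted p = 0.0630) and with no low-count filter (adjusted p = 0.0537). The summed markers were 2792 to 3497 CPM in non-diabetic and 2006 to 3269 CPM in diabetic mice on vehicle, and 1874 to 2850.2 CPM in diabetic mice on PMX-53, and their part in the Slc12a1 result was not tested. Summed markers of the medulla and papilla were 54.7 to 65.9 CPM in diabetic mice on vehicle. They were 26.9 to 41.6 CPM in diabetic mice on PMX-53, and their part was not tested either.

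ROMK (Kcnj1, chr9:32372493-32399197, plus strand), which is present in both the thick limb and the distal nephron, rose with diabetes on vehicle. Its libraries had 136, 171 and 186 CPM (lowest, median and highest) in diabetic and 106, 129 and 165 in non-diabetic mice, with 4 of 6 above the non-diabetic range. On the log2 scale Kcnj1 changed by 0.31 ± 0.09 (adjusted p = 0.00958), or 0.20 (adjusted p = 0.169) with no scaling beyond library totals. Diabetic mice on PMX-53 had 134, 157 and 173 CPM, and the change of -0.08 ± 0.09 did not pass (adjusted p = 0.567). Non-diabetic mice on PMX-53 had 121, 148 and 160.2 CPM, and neither their difference from vehicle (0.12 ± 0.09, adjusted p = 0.839) nor that of diabetic mice on PMX-53 from them (0.11 ± 0.09, adjusted p = 0.523) passed. Kcnj1 thus had a called difference in 1 of the 4 group comparisons.

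In the distal convoluted tubule, NCC (Slc12a3, chr8:94329201-94366214, plus strand) did not separate diabetic from non-diabetic mice on vehicle. The CPM were 729, 847 and 1038 in diabetic and 795, 866 and 936 in non-diabetic mice, and the diabetic libraries spread to both sides of the others. The fitted difference was 0.02 ± 0.09 on the log2 scale (adjusted p = 0.855), and -0.06 with no scaling beyond library totals. Diabetic mice on PMX-53 had 957, 1106 and 1219.7 CPM, and 5 of 6 lay above the whole range of diabetic mice on vehicle. Slc12a3 was 1.26-fold higher with PMX-53 in diabetic mice (log2 0.33 ± 0.09, adjusted p = 0.00499). In non-diabetic mice on PMX-53 the libraries had 915, 1029 and 1297 CPM, with 4 of 6 above the vehicle range. The log2 fold change there, 0.27 ± 0.09, was close in size but did not pass (adjusted p = 0.448), and the interaction was 0.06 ± 0.12 (adjusted p = 0.800). Diabetic and non-diabetic mice on PMX-53 differed by 0.09 ± 0.09 (adjusted p = 0.575). Of 6 markers of the distal convoluted and connecting tubules, 1 was called higher when diabetic mice took PMX-53 (13.9% of all genes). Their median log2 fold change was 0.09. Of 4 podocyte markers 3 were called higher in that comparison (13.9% of all genes), with a median of 0.44. Their summed level was 151 to 173 CPM in diabetic mice on vehicle and 197 to 288 CPM in diabetic mice on PMX-53, and their part in the Slc12a3 result was not tested.

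The kinases upstream of NCC and NKCC2 rose in both comparisons of diabetic with non-diabetic mice. WNK4 (Wnk4, chr11:101260567-101277409, plus strand) had 171, 201 and 222 CPM in diabetic and 138, 159 and 189 in non-diabetic mice on vehicle, and 5 of 6 diabetic libraries lay above the non-diabetic range. The fitted log2 change was 0.31 ± 0.07 (adjusted p = 0.00157). On PMX-53 the CPM were 171, 190.0 and 221 in diabetic and 151, 162 and 175 in non-diabetic mice, again with 5 of 6 above. That change, 0.27 ± 0.07 (adjusted p = 0.0225), lost its call without any 1 of 4 libraries: replicates 3 or 4 of non-diabetic mice on PMX-53, or replicates 5 or 6 of diabetic mice on PMX-53, with adjusted p up to 0.0675. PMX-53 itself gave -0.03 ± 0.07 in diabetic mice (adjusted p = 0.829) and 0.02 ± 0.07 in non-diabetic mice (adjusted p = 0.985). The exons of Wnk4 overlap those of the antisense gene Gm11615 by 306 bases, and Gm11615 had 34 counts over all libraries against 70173 for Wnk4.

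WNK1 (Wnk1, chr6:119923969-120038672, minus strand) had 773, 795 and 888 CPM in diabetic and 617, 699 and 782 in non-diabetic mice on vehicle, with 4 of 6 above the non-diabetic range. Wnk1 rose by 0.22 ± 0.07 on the log2 scale (adjusted p = 0.0144), and 0.12 (adjusted p = 0.291) with no scaling beyond library totals. On PMX-53 the diabetic libraries had 827, 882 and 1025 CPM and the non-diabetic ones 658, 746 and 830.2, with 5 of 6 above and a log2 fold change of 0.28 ± 0.07 (adjusted p = 0.00936). All 6 diabetic libraries on PMX-53 lay above the mean of diabetic mice on vehicle, but the change of 0.15 ± 0.07 did not pass (adjusted p = 0.102), except with no scaling (0.27, adjusted p = 0.0184). In non-diabetic mice PMX-53 gave 0.09 ± 0.07 (adjusted p = 0.853). Distal tubule cells make a short, kidney-specific WNK1 transcript without the kinase domain, and a count per gene does not separate it from full-length WNK1.

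In the connecting tubule and collecting duct, the 3 ENaC subunits had the largest log2 increases of the 9 genes with diabetes on vehicle. The alpha subunit (Scnn1a, chr6:125320659-125344943, plus strand) had 80.9, 92.3 and 122 CPM in diabetic and 55.0, 63.5 and 75.2 in non-diabetic mice. Every diabetic library lay above every non-diabetic one, and Scnn1a was the 1 member without overlap in this comparison, where 14.9% of all genes did not overlap. On the log2 scale Scnn1a rose by 0.58 ± 0.11 (adjusted p = 2.27e-04). Diabetic mice on PMX-53 had 70.9, 86.1 and 108 CPM, and non-diabetic mice on PMX-53 had 64.8, 70.5 and 89.5. The difference between these, 0.26 ± 0.11, did not pass (adjusted p = 0.147), nor did the change with PMX-53 in diabetic mice of -0.12 ± 0.11 (adjusted p = 0.470) or in non-diabetic mice of 0.20 ± 0.11 (adjusted p = 0.757).

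The beta subunit (Scnn1b) had 24.9, 36.8 and 39.2 CPM in diabetic and 19.1, 22.3 and 25.8 in non-diabetic mice on vehicle, with 5 of 6 above the non-diabetic range. It was 1.52-fold higher (log2 0.61 ± 0.10, adjusted p = 5.64e-05). On PMX-53 the diabetic libraries had 30.4, 37.8 and 43.8 CPM against 24.2, 26.9 and 27.8, without overlap, and the log2 fold change was 0.51 ± 0.10 (adjusted p = 0.00208). The gamma subunit (Scnn1g) had 21.1, 29.0 and 34.3 CPM in diabetic and 14.5, 19.6 and 22.5 in non-diabetic mice on vehicle, with 4 of 6 above the range. Its log2 fold changes were 0.53 ± 0.11 on vehicle (adjusted p = 5.85e-04) and 0.48 ± 0.11 on PMX-53 (adjusted p = 0.00653). The libraries on PMX-53 had 26.7, 30.8 and 37.5 CPM in diabetic and 20.6, 22.5 and 25.1 in non-diabetic mice, also without overlap. Scnn1b and Scnn1g were the 2 members of 9 without overlap in that comparison, where 6.00% of all genes did not overlap. Both subunits differed between diabetic and non-diabetic mice whether or not PMX-53 was given, and their interaction terms were -0.09 ± 0.15 (adjusted p = 0.759) and -0.05 ± 0.16 (adjusted p = 0.893).

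PMX-53 in diabetic mice moved neither subunit past the threshold: Scnn1b by 0.16 ± 0.10 (adjusted p = 0.269) and Scnn1g by 0.18 ± 0.11 (adjusted p = 0.228). In non-diabetic mice the changes were 0.25 ± 0.11 (adjusted p = 0.627) and 0.23 ± 0.11 (adjusted p = 0.701). Replicate 4 of diabetic mice on vehicle, the library that stood apart for C3 and Kap, had the lowest Scnn1b, Scnn1g, Slc12a3 and Wnk4 of its group. Without it the diabetic increase on vehicle was 0.61 for Scnn1a, 0.68 for Scnn1b, 0.60 for Scnn1g and 0.35 for Wnk4, each with a call. Among the 12 fits that left out 1 library, the calls of Scnn1a, Scnn1b, Scnn1g, Kcnj1, Wnk1 and Wnk4 on vehicle were all kept. Cog7 lies on the strand opposite to Scnn1b, and their exons do not overlap.

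With diabetes on vehicle, most markers listed for the segments from the distal convoluted tubule to the collecting duct were also called higher. Of 7 principal cell markers, 6 were called higher in diabetic mice on vehicle, where 20.4% of all genes were, among them Aqp2, the vasopressin-regulated water channel (log2 1.72 ± 0.29, adjusted p = 7.77e-05). Their summed level was 123 to 169.6 CPM in non-diabetic and 229 to 376 CPM in diabetic mice. When diabetic mice took PMX-53, 4 of the 7 were called lower (13.5% of all genes), and the sum was 174 to 256 CPM, while Scnn1b and Scnn1g did not pass. Between the groups on PMX-53 none of the 7 was called by edgeR, where 10.0% of all genes were, although Scnn1b and Scnn1g were called. Of the 7, 4 had an unadjusted p under 0.05 in edgeR, where 24.4% of all genes did. Of 6 markers listed for the distal convoluted or connecting tubule, 5 rose with diabetes on vehicle (20.4% of all genes) and 5 with diabetes on PMX-53 (5.52% of all genes). Calb1, a calcium-binding protein of these segments, changed by 1.04 ± 0.19 (adjusted p = 1.30e-04) and 0.82 ± 0.18 (adjusted p = 0.00663). Their sum was 418 to 719.5 and 719.1 to 1129 CPM on vehicle, and 528 to 784 and 817 to 1135 CPM on PMX-53, each time non-diabetic first. Of 7 intercalated cell markers, 5 rose with diabetes on vehicle (20.4% of all genes), including the proton pump subunit gene Atp6v0d2 (0.73 ± 0.09, adjusted p = 4.35e-07). Of 2 tested markers of the inner medulla, 1 rose with diabetes on vehicle (20.4% of all genes). No gene of these lists was at 0 in all libraries, and the part of the markers in the ENaC result was not tested.

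Ratios of members within a library do not depend on its scaling. Of 28 comparisons of 7 ratios, 5 passed an exact two-sided permutation test after adjustment over all 28, and every one of them had Slc12a1 as the denominator. Slc12a1 was chosen as the denominator for Slc12a3, Kcnj1 and Slc9a3. These ratios are thus not independent of each other or of the calls of single genes in the same libraries. Slc12a3 counts were 0.732 to 1.62 times those of Slc12a1 in diabetic mice on vehicle and 1.85 to 3.58 times in diabetic mice on PMX-53, without overlap. The mean ratio was 2.19-fold higher with PMX-53 (exact p = 0.00216, adjusted p = 0.0303, 6 of 6 above the vehicle mean). The ratio of Slc9a3 to Slc12a1 rose 2.39-fold, from 0.0638 to 0.131 times on vehicle to 0.134 to 0.319 times on PMX-53, also without overlap (exact p = 0.00216, adjusted p = 0.0303). An exact p of 0.00216 is the smallest that 6 against 6 allows. Kcnj1 over Slc12a1 rose 1.64-fold (adjusted p = 0.0364, exact test, 6 of 6 above the mean), with overlap.

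In non-diabetic mice PMX-53 also went with higher ratios of Slc12a3 to Slc12a1 (1.35-fold, exact test, adjusted p = 0.0364) and of Kcnj1 to Slc12a1 (1.24-fold, exact test, adjusted p = 0.0364). Each of these lost its call in 10 of the 12 comparisons that left out 1 library, with adjusted p up to 0.0606. With diabetes on vehicle the ratios between ENaC subunits did not pass. Scnn1b was 0.294 to 0.440 times Scnn1a in diabetic and 0.344 to 0.354 times in non-diabetic mice, a log2 difference of 0.01 (exact test, adjusted p = 0.881). Scnn1g over Scnn1b differed by -0.07 (exact test, adjusted p = 0.499). When diabetic mice took PMX-53, Scnn1b over Scnn1a was 1.22-fold higher (5 of 6 above the mean, exact test, adjusted p = 0.172), which did not pass, but did without replicate 3 of diabetic mice on PMX-53 (exact test, adjusted p = 0.0404).

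**Figure D3:**
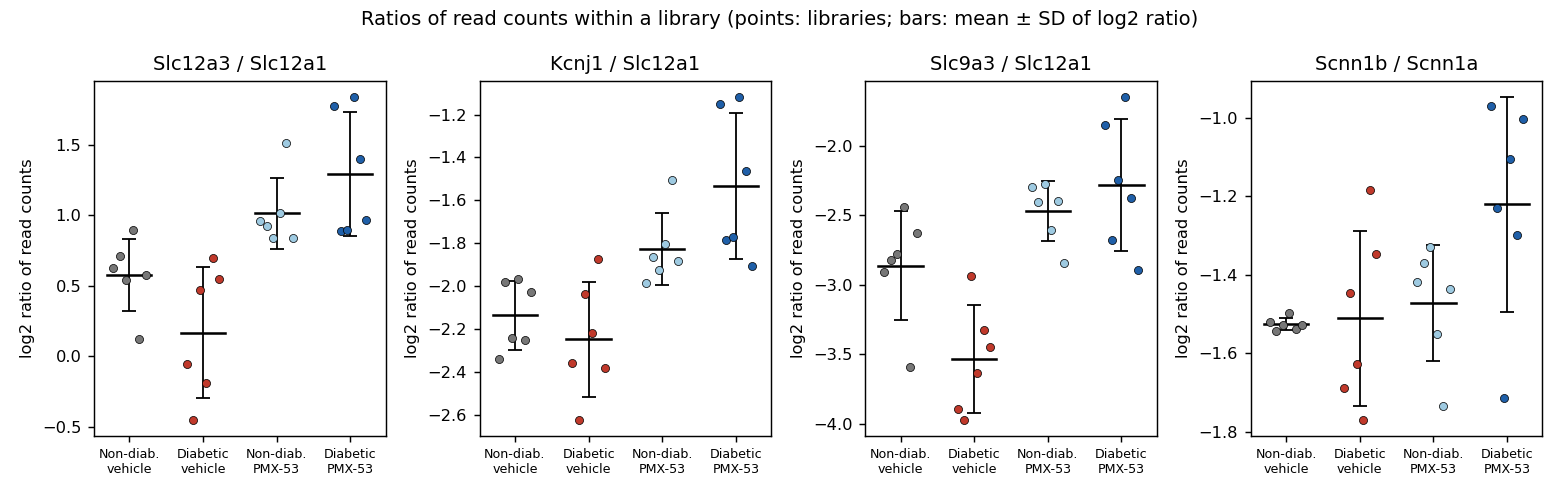
Log2 ratios of read counts of 4 gene pairs within each library (y axes) by group (x axes); points are libraries and bars give the mean and SD of 6. The ratios of Slc12a3 and of Slc9a3 to Slc12a1 in diabetic mice on PMX-53 lie above all diabetic mice on vehicle, and Scnn1b over Scnn1a varies little in non-diabetic mice on vehicle (0.344 to 0.354 as a ratio).

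The members also varied together within groups. Each gene's log2 CPM was taken as a deviation from its group mean, and 36 pairs were tested over 24 libraries by permutation within groups, with 16 pairs past the threshold by Pearson r and 12 by Spearman rho after adjustment over the 36. The libraries are the same for every pair, and the makeup of the tissue piece and the scaling factor of a library are shared by all members. Scnn1b and Scnn1g were the closest pair (Pearson r = 0.85, permutation p = 1e-05, the smallest that 100000 permutations can give, adjusted p = 3.6e-04; Spearman rho = 0.78, p = 1.3e-04, adjusted p = 0.00468). Without the 2 libraries farthest from the median of Scnn1b, r was 0.78, and within the groups it ran from 0.39 in non-diabetic mice on PMX-53 to 0.94 in diabetic mice on vehicle. Scnn1b also varied with Wnk4 (r = 0.70, adjusted permutation p = 0.00486; rho = 0.71, adjusted p = 0.00648) and with Slc12a3 (r = 0.64, adjusted permutation p = 0.00918; rho = 0.60, adjusted p = 0.0205). Slc12a3 and Wnk4 gave r = 0.62 (adjusted permutation p = 0.00684; rho = 0.63, adjusted p = 0.0126). These 3 pairs had r of 0.69, 0.70 and 0.58 without the 2 farthest libraries. Within the groups, r of Scnn1b and Wnk4 ran from -0.05 in non-diabetic mice on PMX-53 to 0.95 in non-diabetic mice on vehicle.

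Slc12a1 varied with Kcnj1 (r = 0.65, adjusted permutation p = 0.00684; rho = 0.64, adjusted p = 0.0126; r = 0.58 without the 2 farthest libraries) and not past the threshold with any other member, Slc12a3 included (r = -0.10, adjusted permutation p = 0.727; rho = -0.12, adjusted p = 0.652). Slc9a3 varied against Wnk1 (r = -0.62, adjusted permutation p = 0.0195; rho = -0.65, adjusted p = 0.0156; r = -0.53 without the 2 farthest libraries), and this pair missed the threshold with no scaling beyond library totals (r = -0.48, adjusted permutation p = 0.0501). By Pearson r Wnk1 had 6 of 8 pairs past the threshold and Scnn1b and Scnn1g had 5 each, but by Spearman rho Wnk1 had 3 and Scnn1b and Scnn1g 4 each. Slc9a3 and Slc12a1 had 1 each by either measure. Replicate 4 of diabetic mice on vehicle bears on some pairs: without it 12 of 36 passed by Pearson r.

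**Figure D4:**
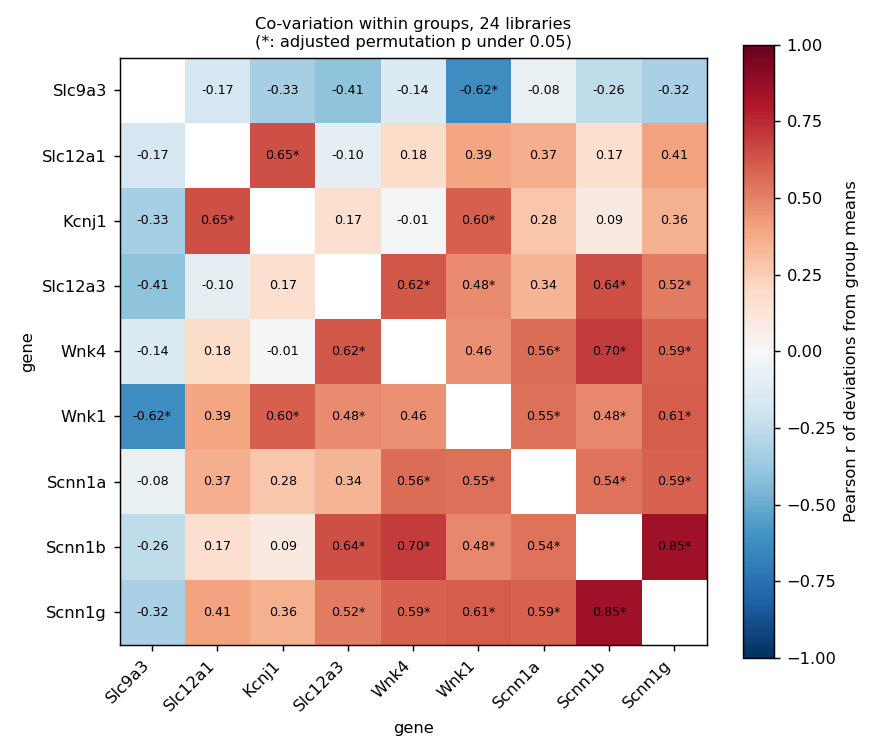
Pearson r between deviations from group means for the 36 pairs of members over 24 libraries, with genes on both axes in nephron order and colour from -1 to 1; an asterisk marks an adjusted permutation p under 0.05. Scnn1b and Scnn1g have the highest r (0.85), Slc12a1 and Kcnj1 have 0.65, and Slc9a3 and Wnk1 have -0.62.

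Likeness to other genes was measured by Pearson r over the 24 libraries, among 11603 tested genes with a mean log2 CPM of at least 1. By deviations from group means, the genes closest to Slc12a3 and Wnk1 belonged to a pathway list described next. Klhl3, whose product targets WNK kinases for degradation, came first for Slc12a3 (r = 0.84, n = 24 libraries), and Kcnj10, the basolateral potassium channel Kir4.1, came first for Wnk1 (r = 0.84). For Slc12a1 the closest were Slc39a8, Irx2 and Tmem207 (each r = 0.90). Scnn1g had Scnn1b first (r = 0.85), then Fry (0.84) and Fam53b (0.83). By levels over all 24 libraries, Scnn1b and Scnn1g were each other's closest gene (r = 0.95). The first genes by level were Irx2 for Slc12a1 (r = 0.95), Synpo, known from podocytes, for Slc12a3 (0.90), Tanc1 for Scnn1a (0.90), Ermp1 for Wnk1 (0.91), Efhd1 for Wnk4 (0.90), Pdzrn3 for Slc9a3 (0.89) and Slc16a7 for Kcnj1 (0.82). These were picked as the highest of many values and are given without a test.

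Beyond the 9 members, 56 genes of 7 sodium transport pathways are described, and all 56 passed the filter on low counts. With diabetes on vehicle 20 rose and 14 fell, 34 of 56 where 40.3% of all genes were called. With PMX-53 in diabetic mice 11 rose and 18 fell, where 27.3% of all genes were called, and with diabetes on PMX-53 3 rose and 7 fell, where 10.0% were. PMX-53 in non-diabetic mice gave no call by edgeR, with 3 of the 56 at an unadjusted p under 0.05, where 7.22% of all genes were. The median log2 fold change of the 56 for diabetes on vehicle was 0.06, against -0.00 over all genes. Segment markers moved in the same comparisons, with the sums given above, and their part in the pathway results was not tested.

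Of 9 genes of the WNK and SPAK cascade, 4 rose and 2 fell with diabetes on vehicle, with a median log2 fold change of 0.16. Stk39, the gene of SPAK, had 27.5 to 44.5 CPM in diabetic and 18.4 to 24.1 CPM in non-diabetic mice on vehicle, without overlap. On the log2 scale it rose by 0.69 ± 0.10 (adjusted p = 4.58e-06) on vehicle and by 0.44 ± 0.10 (adjusted p = 0.00496) on PMX-53. Oxsr1, the gene of the related kinase OSR1, fell by 0.20 (SE 0.05, adjusted p = 0.00106) with diabetes on vehicle. Cab39, which encodes a scaffold that activates both kinases, rose by 0.16 ± 0.05 (adjusted p = 0.00708), a call that ended with no scaling beyond library totals (0.06, adjusted p = 0.55). Klhl2, an adaptor that marks WNK kinases for degradation, fell by 0.37 (SE 0.07, adjusted p = 1.77e-04) on vehicle and also with diabetes on PMX-53, at -0.31 ± 0.07 (adjusted p = 0.00503). In diabetic mice 1 of the 9 rose and 2 fell with PMX-53 (13.9% and 13.5% of all genes).

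Of 11 genes of aldosterone signalling and ENaC regulation, 7 rose and 1 fell with diabetes on vehicle (median 0.38), and 0 rose and 6 fell with PMX-53 in diabetic mice (median -0.28). Sgk1, a corticosteroid-induced kinase that keeps ENaC at the membrane, had 83.8 to 219 CPM in diabetic and 29.8 to 83.1 CPM in non-diabetic mice on vehicle. Diabetic mice on PMX-53 had 28.9 to 50.3 CPM, and neither comparison overlapped, although the vehicle groups came within 1 CPM of each other. The log2 fold changes were 1.46 ± 0.31 (adjusted p = 7.40e-04) with diabetes and -1.68 ± 0.31 (adjusted p = 4.42e-04) when diabetic mice took PMX-53. Per1, a clock gene that aldosterone induces, had 73.7 to 175 CPM in diabetic and 19.3 to 47.8 CPM in non-diabetic mice on vehicle, and 28.7 to 47.7 CPM in diabetic mice on PMX-53. It changed by 1.86 ± 0.22 (adjusted p = 9.71e-07) and -1.73 ± 0.22 (adjusted p = 8.90e-06). Sgk1 and Per1 fell with PMX-53 in diabetic mice, where no ENaC subunit passed. Of the proteases that cleave ENaC or activate its cleavage, St14 (matriptase) rose by 0.78 ± 0.10 (adjusted p = 5.76e-07) and Prss8 (prostasin) fell by 0.29 (SE 0.07, adjusted p = 0.00262) with diabetes on vehicle. St14 was also higher with diabetes on PMX-53, at 0.44 ± 0.10 (adjusted p = 0.00431).

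The partners of NKCC2 in the thick limb moved in both directions. Of 6 genes, 1 rose and 3 fell in diabetic mice on vehicle (20.4% and 19.9% of all genes). With PMX-53 in diabetic mice 2 rose and 1 fell (13.9% and 13.5% of all genes). Cldn10, whose product forms paracellular pores, changed by -0.56 ± 0.07 (adjusted p = 5.79e-07) with diabetes on vehicle and by -0.56 ± 0.07 (adjusted p = 7.17e-06) on PMX-53. Casr, the calcium-sensing receptor, changed by -0.42 ± 0.09 (adjusted p = 6.27e-04) with diabetes on vehicle and by 0.42 ± 0.09 (adjusted p = 0.00132) when diabetic mice took PMX-53, each time opposite in sign to Slc12a1. Cldn19, a claudin of calcium and magnesium reabsorption, rose by 0.58 ± 0.17 (adjusted p = 0.00788) with diabetes on vehicle, a call that ended with no scaling beyond library totals (0.47, adjusted p = 0.0541). When diabetic mice took PMX-53, Cldn19 changed by -0.63. It was called lower there in all 12 edgeR fits that left out 1 library (adjusted p up to 0.0228). Cldn19 thus had the same sign as Slc12a1 in both comparisons, where Casr had the opposite.

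Of 11 genes of proximal sodium transport and NHE3 regulation, 3 rose and 4 fell in diabetic mice on vehicle (20.4% and 19.9% of all genes). With PMX-53 in diabetic mice 5 rose and 4 fell (13.9% and 13.5% of all genes). Slc34a1, the sodium phosphate cotransporter, changed in the same directions as Slc9a3, by -0.64 ± 0.12 (adjusted p = 1.12e-04) and 0.51 ± 0.12 (adjusted p = 0.00191). Slc9a3r1, which encodes the NHE3 scaffold NHERF1, fell by 0.28 (SE 0.05, adjusted p = 1.29e-04) with diabetes on vehicle. Chp1, a calcineurin B homologue that binds sodium proton exchangers, went against Slc9a3, at 0.34 ± 0.06 (adjusted p = 1.14e-04) and -0.57 ± 0.06 (adjusted p = 4.45e-07). Slc4a4, the basolateral sodium bicarbonate cotransporter, rose by 0.35 ± 0.07 (adjusted p = 4.53e-04) with diabetes on vehicle.

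The basolateral Na,K-ATPase drives these transporters, and of 6 genes of its subunits and regulators 2 rose and 1 fell with diabetes on vehicle. Atp1b1, a beta subunit of the kidney pump, had 1896 to 2224 CPM in diabetic and 1510.4 to 1652 CPM in non-diabetic mice on vehicle, without overlap, and 1548 to 1726 CPM in diabetic mice on PMX-53. Its log2 fold changes were 0.39 ± 0.05 (adjusted p = 1.86e-06) with diabetes on vehicle and -0.33 ± 0.05 (adjusted p = 5.47e-05) when diabetic mice took PMX-53, and with diabetes on PMX-53 it was 0.12 ± 0.05 (adjusted p = 0.154). Atp1b2, another beta subunit, fell by 0.46 (SE 0.14, adjusted p = 0.00878) with diabetes on vehicle. Fxyd4, a regulator of the pump in the collecting duct, rose by 0.71 ± 0.26 (adjusted p = 0.0305) on vehicle and was lower with PMX-53 in diabetic mice, at -0.73 ± 0.26 (adjusted p = 0.0383). Both Fxyd4 calls ended with no scaling beyond library totals (adjusted p = 0.085 and 0.109) and with no low-count filter (0.0618 and 0.0792), and in 5 and 8 of the fits without 1 library (up to 0.0744 and 0.0924). Atp1b3 did not pass with diabetes on vehicle, at 0.09 ± 0.05 (adjusted p = 0.200).

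Of 6 potassium channel genes, 1 rose and 1 fell with diabetes on vehicle. Kcnk1 (TWIK1) changed by 0.87 ± 0.17 (adjusted p = 2.31e-04) with diabetes on vehicle and by -1.10 ± 0.17 (adjusted p = 4.92e-05) when diabetic mice took PMX-53. Kcnk5 (TASK2, a channel of the proximal tubule) changed by -0.82 ± 0.17 (adjusted p = 5.04e-04) with diabetes on vehicle and -0.97 ± 0.17 (adjusted p = 7.71e-04) on PMX-53. Of 7 other transporters of cations, chloride or bicarbonate, 2 rose and 2 fell with diabetes on vehicle. Slc4a8, a sodium-driven exchanger of bicarbonate and chloride, rose by 0.94 ± 0.12 (adjusted p = 4.52e-07) on vehicle and by 0.54 ± 0.12 (adjusted p = 0.00347) on PMX-53. Slc4a9, of intercalated cells, rose by 0.37 ± 0.10 (adjusted p = 0.00527) on vehicle, and the potassium chloride cotransporter gene Slc12a7 fell by 0.31 (SE 0.09, adjusted p = 0.00709).

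**Figure D5:**
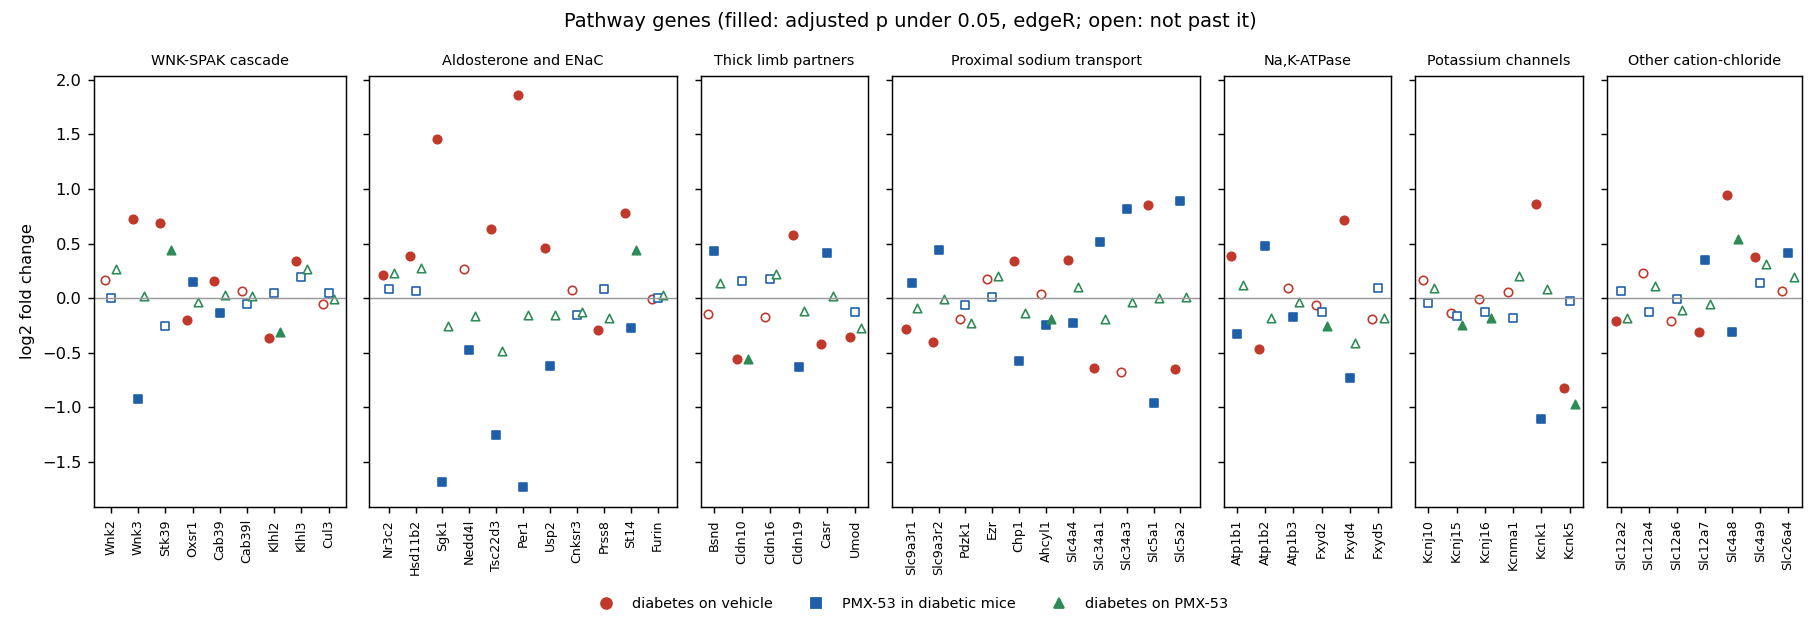
Log2 fold changes (y axis) of the 56 pathway genes (x axis) in 7 lists for diabetes on vehicle (circles), PMX-53 in diabetic mice (squares) and diabetes on PMX-53 (triangles); filled symbols passed an adjusted p of 0.05 in edgeR and open ones did not. Sgk1 and Per1 stand highest and lowest, at 1.46 and 1.86 with diabetes on vehicle and -1.68 and -1.73 with PMX-53 in diabetic mice, and Stk39 and St14 are filled for both comparisons of diabetic with non-diabetic mice.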

How the data were processed

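The 9 genes, the pathway and marker lists and the tests were chosen with earlier results of these data known. Cortex RNA (200 ng per library) went through ribosomal RNA depletion and a directional library kit, per the labels' protocols. The authors deposited 1 table of raw read counts per gene for 24 libraries, and the submitters' processing notes name bcl2fastq 2.20.0.422, STAR and GRCm38. The counting tool, annotation release and strand option were not given in the sources used here, so reads of antisense genes may be included. Counts were used as deposited: filterByExpr kept 15808 genes, TMM factors ran from 0.873 to 1.11, and edgeR 4.0.16 (R 4.3.3) fitted 1 robust quasi-likelihood model over the 4 groups, with Benjamini-Hochberg adjustment and a threshold of 0.05. SE was taken as the size of the log2 fold change divided by the square root of F. Alternatives used DESeq2 1.42.0, limma 3.58.1, other scalings and filters, thinning to 10964992 counts per library and leaving out each library. The scripts were tested on simulated counts. Ratios and correlations used scipy 1.17.1 in Python 3.11.15 and figures matplotlib 3.10.9. Ratios took counts with 0.5 added and correlations log2 of CPM with 0.5 added. Gene positions are from GENCODE vM21 and promoters from RefSeq. All 60 pairs of replicates differed by more than sampling noise (smallest chi-square per degree of freedom 5.65), and none was identical. Besides the 9 genes, the text names, for each pathway and segment list, up to 4 genes with the smallest p for diabetes on vehicle, and for each member genes among the 3 closest by Pearson r. C3 and Kap are given as values of libraries that stand apart. Nnt, and Tsc22d3, Slc5a1, Ahcyl1 and Slc9a3r2 with a passing interaction, are not covered by the rule: they were picked once their values had been seen. Some genes are not reported here, and list counts leave them out.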

Additional observations from a re-analysis of the deposited data

Results flagged for a closer look

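Slc12a3 in replicate 5 of non-diabetic mice on PMX-53 had 1297 CPM, where the other 5 libraries of the group had 915 to 1044, and the gap to its nearest neighbour was 0.663 of the range, above Dixon's 95% critical value. It was 1 of 36 groups of member values checked, and chance flags about 1 in 20.

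For 10 of the 56 pathway genes the effect of PMX-53 differed between diabetic and non-diabetic mice by edgeR's interaction term, where 9.42% of all genes were called, and no member passed. The log2 difference was -2.01 for Per1, -1.71 for Sgk1 and -1.12 for Tsc22d3, which are induced by corticosteroids. It was 0.44 for Casr in the thick limb. Among proximal genes it was -0.86 for Slc5a1 (the glucose cotransporter SGLT1), -0.47 for Chp1, -0.23 for Ahcyl1 and 0.39 for Slc9a3r2. It was -0.27 for Atp1b1 of the Na,K-ATPase and -0.78 for Kcnk1. Leaving out 1 library at a time ended 6 of these calls: those of Kcnk1 and Slc9a3r2 in 16 fits each (adjusted p up to 0.0747 and 0.0932), Slc5a1 in 15 (up to 0.0722), Tsc22d3 in 14 (up to 0.0732), Ahcyl1 in 10 (up to 0.0618) and Casr in 4 (up to 0.0604). With no scaling beyond library totals the calls of Atp1b1 (adjusted p = 0.396), Chp1 (0.0558), Kcnk1 (0.0889), Tsc22d3 (0.0656), Ahcyl1 (0.548) and Slc5a1 (0.0925) ended. After thinning to the smallest library that of Slc9a3r2 ended (adjusted p = 0.188), and with upper-quartile scaling that of Ahcyl1 (0.0503). With no low-count filter the calls of Casr (adjusted p = 0.0559), Kcnk1 (0.0996), Tsc22d3 (0.0805), Slc9a3r2 (0.0548), Ahcyl1 (0.0762) and Slc5a1 (0.0767) ended.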

How the results depend on the processing

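Of 486 refitted member fold changes, those of fits without 1 library aside, 463 kept direction and side of the threshold, 7 lost a call, 3 gained one and 13 changed sign. No value that changed sign had been called. With no scaling beyond library totals, 5 members rather than 8 passed for diabetes on vehicle, 1 rather than 0 for the interaction, and 6 rather than 10 pathway genes for the interaction. With no low-count filter 4 pathway genes passed for the interaction. By limma voom 1 member and 18 pathway genes passed for the interaction. Co-variation passed in 21 pairs rather than 16 with no scaling. The cause was not tested.

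With no scaling the signs that changed were those of Slc12a3 for diabetes on vehicle (-0.063), Scnn1a, Kcnj1 and Wnk4 for PMX-53 in diabetic mice (0.00039, 0.045 and 0.091), and Scnn1b, Scnn1g and Wnk4 in the interaction (0.016, 0.061 and 0.065). Slc9a3 for diabetes on PMX-53, near 0 throughout, was 0.023 with no scaling, 0.0066 with upper-quartile scaling, 0.00024 with a stricter filter, 0.0018 without mitochondrial and ribosomal RNA genes, 0.00069 with only the groups compared and 0.015 after thinning.

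Leaving out 1 library gave 6 to 8 members for diabetes on vehicle, 5 to 15 pathway genes for the interaction and 3 to 11 ratios past the threshold. The interaction count was 5 or 6 without replicates 3 or 4 of non-diabetic mice on vehicle, 1 or 2 of diabetic mice on vehicle, 4 or 6 of non-diabetic mice on PMX-53 or 3 or 5 of diabetic mice on PMX-53. The ratios numbered 11 without replicate 3 of diabetic mice on PMX-53 and 3 without replicates 1, 2, 3 or 6 of non-diabetic mice on vehicle or 2 to 5 of non-diabetic mice on PMX-53. Fold changes whose sign moved ranged from -0.030 to 0.071 for Slc12a3 with diabetes on vehicle, -0.067 to 0.010 and -0.021 to 0.072 for Wnk4 with PMX-53 in diabetic and non-diabetic mice, -0.052 to 0.042 for Slc9a3 with diabetes on PMX-53 and -0.11 to 0.020 for Scnn1g in the interaction. Log2 ratios ranged from -0.051 to 0.066 for Scnn1b over Scnn1a with diabetes on vehicle and -0.0029 to 0.11 for Scnn1g over Scnn1a with PMX-53 in non-diabetic mice. Those of Scnn1g over Scnn1b ranged from -0.019 to 0.047 with PMX-53 in diabetic and -0.051 to 0.016 in non-diabetic mice and -0.072 to 0.0013 with diabetes on PMX-53, and Wnk4 over Wnk1 from -0.056 to 0.026 with diabetes on PMX-53.

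Replicate numbers did not pair the samples: same-numbered libraries had r from -0.12 to 0.13 in their deviations, and at most 1 of 6 correlated best with its own number. With the replicate block 7 members rather than 8 passed for diabetes on vehicle, since Slc12a1 had an adjusted p of 0.0545, and the member calls in the other comparisons numbered the same. It also ended the interaction calls of Tsc22d3 (adjusted p = 0.0533), Slc9a3r2 (0.0686) and Ahcyl1 (0.0502) and the calls of Fxyd4 for diabetes on vehicle (0.0558) and PMX-53 in diabetic mice (0.0684). Depth limits Scnn1g and Scnn1b most, with 200 and 263 counts in their lowest libraries.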
